A study of Homo sapiens with 18 samples.

Results

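The Krüppel-like factors (KLF) are DNA-binding proteins with C2H2 zinc fingers, and 10 of their genes, *KLF2*, *KLF3*, *KLF4*, *KLF5*, *KLF6*, *KLF7*, *KLF10*, *KLF11*, *KLF13* and *KLF15*, were followed here out of 21944 genes in the authors' deposited table. They were chosen by gene symbol, and all 10 were listed and had an adjusted p at 3, 6 and 24 h. The cells were human pancreatic progenitors made from embryonic stem cells and taken at day 19 of differentiation, when they were detached with accutase and seeded again on laminin-411 (LN411), a laminin isoform, or on fibronectin (FN). Both matrices were sampled after 3, 6 and 24 h, with 3 samples in each of 6 groups and 18 samples in all, and no group carried another treatment. The sample labels name the HUES4 line, whereas the growth protocol and the study's methods name NGN3-GFP, a reporter line for *NEUROG3* derived from the SA121 line. The labels name no sort into cell types for these samples, and each group is a culture model from stem cells.

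KLF proteins bind GC-rich and CACCC-type sequences in promoters and enhancers, and the parts of the proteins outside the zinc fingers decide which cofactors they recruit. *KLF2*, *KLF4*, *KLF5*, *KLF6* and *KLF7* encode factors that often activate transcription with acetyltransferase partners, KLF3 is a repressor that binds CtBP, and KLF10, KLF11 and KLF13 are repressors that bind SIN3A. Many of the genes are induced within a short time by serum, growth factors, TGF-beta or fluid flow, and in epithelia KLF4 and KLF5 are known for roles in differentiation and proliferation. The comparison between matrices asks how each gene's RNA differs between cells on LN411 and on FN, and the comparison between times asks whether that difference changes as the cells settle.

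After 24 h, 4 of the 10 genes differed between the matrices, where 29.5% of all tested genes did. *KLF4* was 1.51-fold higher on LN411, a call that was lost with a t distribution, whereas *KLF6*, *KLF7* and *KLF11* were lower, at 0.631-, 0.748- and 0.737-fold. *KLF5*, the most abundant of the 10, was 12.3% lower on LN411 at 6 h, a call also lost with a t distribution, and had an estimate above 0 at 24 h. None of the 10 passed the test at 3 h. The mean over all samples was the single measure of level used, with no value per sample, so the spread between replicates enters through the standard error (SE) of each log2 fold change.

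The 3 genes that fell and the one that rose at 24 h, and *KLF5*, are shown first by the DNA before their start sites. RefSeq start sites on GRCh38.p14 were found for 8 of the 10 genes, with 13 windows of 250 bases upstream, and *KLF3* and *KLF10* had no entry. The windows were GC-rich, with a median GC content of 72% against 58% over all 35116 windows of the table and a range of 40.8% to 80.4%. Searched motifs were the GC box GGGCGG and the CACCC box, the usual KLF and SP sites, the TEAD motif GGAATG, the AP-1 motif TGANTCA, the CRE TGACGTCA and the CArG box, each on both strands. Bases inside exons of the annotation were left out, and capitals mark every match of these motifs in what remained.

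For *KLF4*, the stretch is chr9:107489770-107490019 on the minus strand, printed 5′ to 3′ like the others, and it holds 4 GC boxes.
KLF4: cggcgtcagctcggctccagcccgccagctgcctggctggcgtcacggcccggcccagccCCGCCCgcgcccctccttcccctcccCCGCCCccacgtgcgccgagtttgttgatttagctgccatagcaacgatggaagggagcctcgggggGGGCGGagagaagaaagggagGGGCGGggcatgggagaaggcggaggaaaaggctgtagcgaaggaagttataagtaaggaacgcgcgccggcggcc
For *KLF6*, the stretch is chr10:3785282-3785459 on the minus strand, with 1 GC box.
KLF6: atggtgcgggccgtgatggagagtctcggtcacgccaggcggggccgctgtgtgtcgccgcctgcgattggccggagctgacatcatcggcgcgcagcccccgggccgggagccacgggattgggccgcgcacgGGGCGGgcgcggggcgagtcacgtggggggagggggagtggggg
For *KLF7*, which has 4 windows, the one with the fewest exon bases is shown, chr2:207167268-207167496 on the minus strand. It holds 1 CACCC box, 1 TEAD motif and 1 CArG box and no GC box, and its whole window has a GC content of 43.2%. Another window of *KLF7*, chr2:207166857-207167106, is not shown and has a GC content of 72% and 4 GC boxes.
KLF7: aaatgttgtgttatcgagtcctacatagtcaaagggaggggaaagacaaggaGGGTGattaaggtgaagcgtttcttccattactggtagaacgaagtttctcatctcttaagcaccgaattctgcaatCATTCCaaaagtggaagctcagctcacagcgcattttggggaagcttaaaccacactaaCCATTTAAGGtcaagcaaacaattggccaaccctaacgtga
For *KLF11*, likewise, the stretch is chr2:10043971-10044174 on the plus strand, with 5 GC boxes, 1 CRE and 1 CACCC box whose first letters are the last letters of the CRE.
KLF11: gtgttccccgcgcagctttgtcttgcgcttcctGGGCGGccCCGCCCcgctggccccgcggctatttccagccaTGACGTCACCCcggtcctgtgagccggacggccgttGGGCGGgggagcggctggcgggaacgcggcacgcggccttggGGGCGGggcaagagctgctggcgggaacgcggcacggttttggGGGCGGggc
For *KLF5*, both windows are shown because they differ in base composition. The first, chr13:73054726-73054975 on the plus strand, has a GC content of 40.8%, 1 CACCC box and no GC box.
KLF5 upstream start: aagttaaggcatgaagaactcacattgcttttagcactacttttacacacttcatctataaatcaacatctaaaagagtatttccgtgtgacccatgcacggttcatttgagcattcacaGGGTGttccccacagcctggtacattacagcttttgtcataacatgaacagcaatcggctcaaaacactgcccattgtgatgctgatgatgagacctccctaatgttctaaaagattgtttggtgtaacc
The second, chr13:73058755-73059004 on the same strand, has a GC content of 70.8%, with 2 GC boxes and 2 CACCC boxes.
KLF5 downstream start: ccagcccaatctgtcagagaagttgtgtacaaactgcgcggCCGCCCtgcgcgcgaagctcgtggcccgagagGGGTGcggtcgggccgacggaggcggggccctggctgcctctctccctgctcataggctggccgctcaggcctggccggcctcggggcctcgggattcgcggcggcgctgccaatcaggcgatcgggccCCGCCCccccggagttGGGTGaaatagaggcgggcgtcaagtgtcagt

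Over the 13 whole windows, 9 held a GC box, which 42.6% of all windows of this length held. A CACCC box was found in 6, against 54.7% of all. The 13 windows belong to 8 genes, and 4 of the windows are of *KLF7*. Their median GC content is 72% against 58% over all windows, and the shares were not matched for it. A TEAD motif was found in 1 window, of *KLF7*, against 11.9% of all windows, and an AP-1 motif in 0, against 6.57%. The CRE of *KLF11* and the CArG box of *KLF7* were the single matches of their kinds, and 1.65% and 1.16% of all windows held these motifs. A match of letters is a description of the sequence, and the data hold no measure of binding.

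The 10 genes differed widely in level (see the plot of mean level per kilobase). *KLF5* (ENSG00000102554, chromosome 13 of GRCh38, 73054976 to 73077541, plus strand), a factor of proliferating epithelia, had a mean normalized count of 10615, above 95.8% of all listed genes, or 3170 per kb of its longest annotated transcript. *KLF3* (ENSG00000109787, chromosome 4, 38664197 to 38701517, plus strand) followed with 1166 per kb. *KLF6* (ENSG00000067082, chromosome 10, 3775996 to 3785281, minus strand), an early response gene, had 919 per kb. These 3 genes lay above *KLF4* (ENSG00000136826, chromosome 9, 107484852 to 107490482, minus strand) at 398 per kb and *KLF10* (ENSG00000155090, chromosome 8) at 353 per kb.

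The lower levels belonged to *KLF15* (ENSG00000163884, chromosome 3, 126342635 to 126357408, minus strand) at 174 per kb, *KLF7* (ENSG00000118263, chromosome 2, 207074137 to 207173856, minus strand) at 91.2 and *KLF11* (ENSG00000172059, chromosome 2, 10042849 to 10054836, plus strand) at 86.5. *KLF2* (ENSG00000127528, chromosome 19, 16324826 to 16328685, plus strand) had 74.4 per kb and *KLF13* (ENSG00000169926, chromosome 15, 31326835 to 31435665, plus strand) 26.7 per kb. The order of the first 5 genes and of *KLF7*, *KLF11* and *KLF2* among themselves was the same with the median length of coding transcripts, whereas *KLF13* moved to 319 per kb because that length is 574 bases instead of 6845, and *KLF7* passed *KLF15*. These means have no spread of their own in the table, so neighbours in the order cannot be set against sample error.

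**Figure D1:**
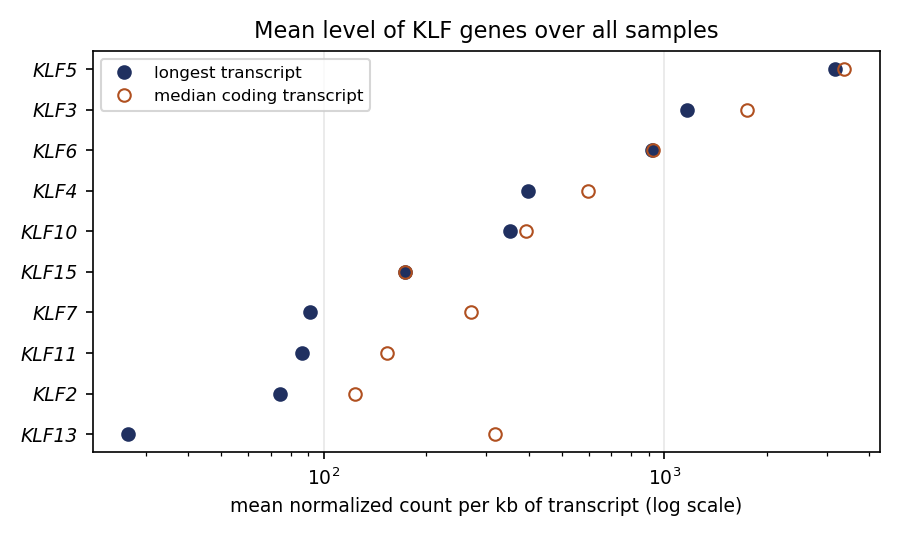
Mean level of the 10 KLF genes over all 18 samples as normalized counts per kilobase of transcript on a log axis, with the longest transcript as filled and the median coding transcript as open circles. *KLF5* stands highest at 3170 per kb by the longest transcript, and *KLF13* shifts most between both lengths, from 26.7 to 319.

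The effect of LN411 at 24 h was read in 10 genes, of which 1 was higher and 3 were lower. Over all 19569 genes tested at this time, 29.5% were called, 16.7% as higher and 12.8% as lower on LN411, so 4 calls of 10 are near the background and are no result about the family as such. The median log2 fold change of the 10 genes was −0.13, against 0.012 over all genes, and the median absolute log2 fold change was 0.26 against 0.17. Without adjustment, 7 of the 10 genes and 37.7% of all genes had p under 0.05.

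Among the activators, *KLF6*, which is induced early after injury and growth stimulation, had the largest fall. Its log2 fold change at 24 h was −0.66 (SE 0.14, 95% confidence interval −0.95 to −0.38, adjusted p = 3.49e-05), after −0.041 at 3 h and −0.14 at 6 h. Expressed as a percentage, *KLF6* RNA was 36.9% lower on LN411 at 24 h. *KLF7*, a factor known from neuronal development, had the smallest p of the 10 at 24 h, with a log2 fold change of −0.42 (SE 0.080, interval −0.58 to −0.26, adjusted p = 1.58e-06), which is 25.2% lower. Its estimates at 3 and 6 h were −0.098 and −0.084, with intervals that included 0.

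*KLF4*, a factor of epithelial differentiation and of reprogramming to pluripotency, was the one gene of the 10 that was called higher. Its log2 fold change at 24 h was 0.60 (SE 0.22, interval 0.16 to 1.03, adjusted p = 0.0273). The interval ran from 1.12- to 2.04-fold, so the size of the rise was poorly fixed, and the call was lost with a t distribution (adjusted p = 0.0752). At 3 and 6 h, the log2 fold changes of *KLF4* were 0.061 and −0.097, with half-widths of 0.40 at each time. *KLF2*, which shares with *KLF4* an induction by fluid flow in endothelium, did not pass the test at any time, with −0.21 at 3 h, 0.027 at 6 h and −0.20 at 24 h (interval −0.58 to 0.19 at 24 h).

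Among the repressors, *KLF11*, a TGF-beta-inducible factor that binds SIN3A, was called lower at 24 h. Its log2 fold change was −0.44 (SE 0.12, interval −0.68 to −0.20, adjusted p = 0.00164), or 26.3% lower on LN411, after −0.017 at 3 h and 0.040 at 6 h. *KLF10*, the other TGF-beta-inducible member, had −0.32 at 24 h (interval −0.60 to −0.034, adjusted p = 0.0841) and did not pass. *KLF13*, a SIN3A-binding factor known from T cells, had 0.18, 0.051 and −0.054 at the 3 times, and its widest interval, at 3 h, ran from −0.13 to 0.49. *KLF3*, the CtBP-binding repressor, had the narrowest intervals of the 10. Its estimates were −0.024, 0.040 and 0.014 at 3, 6 and 24 h, and its intervals lay between 0.933- and 1.08-fold over the 3 times.

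*KLF15*, known for its part in gluconeogenesis and in the response to glucocorticoids, belongs to neither group of cofactors. Its estimate was above 0 at each time, with 0.13 at 3 h, 0.16 at 6 h and 0.19 at 24 h (interval 0.027 to 0.34, adjusted p = 0.0687), and it did not pass the test at any of them. Among the 5 activators, 1 was higher, 2 were lower and 2 did not pass at 24 h, and among the 3 SIN3A-binding repressors 1 was lower and 2 did not pass. Over all genes, 29.5% were called at 24 h, 16.7% as higher and 12.8% as lower, and groups of 5 and 3 genes are too small to read against these shares. The called activators did not share a direction at 24 h, but the single rise, of *KLF4*, was lost with a t distribution (adjusted p = 0.0752). RNA was measured in bulk, where fewer cells of a type and less RNA per cell cannot be told apart.

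**Figure D2:**
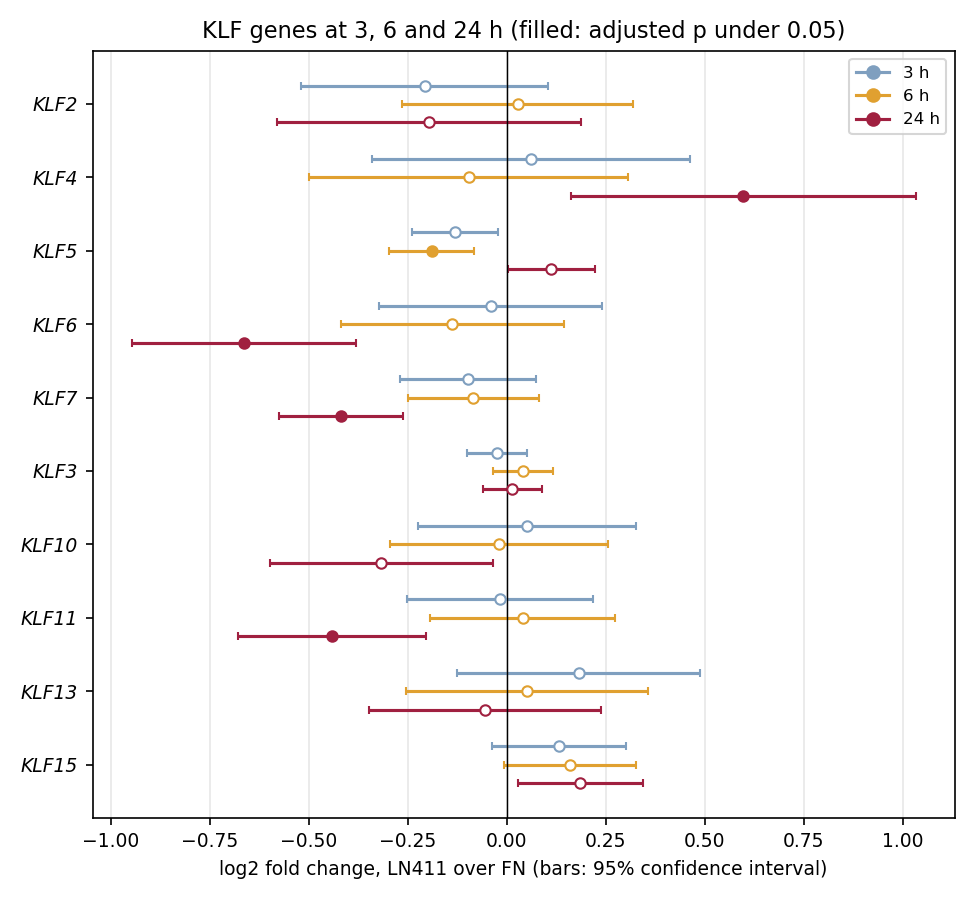
Log2 fold change of LN411 over FN for the 10 KLF genes at 3, 6 and 24 h, with the 95% confidence interval as bars and filled circles for adjusted p under 0.05. The filled circles at 24 h are *KLF4* at 0.60, *KLF6* at −0.66, *KLF7* at −0.42 and *KLF11* at −0.44, and the single one at 6 h is *KLF5* at −0.19.

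*KLF5* followed another course than the genes above. At 3 h, its log2 fold change was −0.13 (SE 0.055, interval −0.24 to −0.023, adjusted p = 0.717) and did not pass. At 6 h, it was −0.19 (SE 0.055, interval −0.30 to −0.082, adjusted p = 0.0123), and *KLF5* was the one gene of the 10 called at this time. At 24 h, the estimate was 0.11 (interval 0.0028 to 0.22, adjusted p = 0.121), which did not pass. Over all genes, 8.23% were called at 6 h and 3.33% were called lower, so 1 call of 10 is again near the background. The call at 6 h was lost with a t distribution (adjusted p = 0.103), at the stricter threshold of 0.01, and with a limit of 0.5 on the absolute log2 fold change.

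At 3 h, 0 of the 10 genes passed, against 0.383% of the 17487 genes tested, and *KLF5* was the 1 gene with an unadjusted p under 0.05 in the test on the authors' DESeq2 estimates, against 5.39% of all genes. Estimates at 3 h ranged from −0.21 for *KLF2* to 0.18 for *KLF13*. The median log2 fold change of the 10 genes was −0.020 at 3 h and 0.0037 at 6 h, against 0.0093 and 0.022 over all genes. Differences of the size seen at 24 h for *KLF6* (−0.66) lay outside the intervals of *KLF6* at 3 h (−0.32 to 0.24) and at 6 h (−0.42 to 0.14).

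Whether the effect of LN411 changed between times was tested from the difference of the log2 fold changes, and 4 of the 10 genes passed in at least 1 of the 3 comparisons, against 19.3% of the 18672 genes listed at all times. Between 3 and 6 h, no member passed, against 0.257% of all genes, and the adjusted p was 0.9998 for each of the 10, with 0 of the 10 at an unadjusted p under 0.05 against 5.15% of all genes. Between 6 and 24 h, *KLF5*, *KLF7* and *KLF11* passed, against 12.8% of all genes. Between 3 and 24 h, *KLF5*, *KLF6* and *KLF7* passed, against 17.0% of all genes. The comparisons with 24 h share its samples and are not independent of each other. With a t distribution, 1 of these 6 differences passed, that of *KLF5* from 6 to 24 h (adjusted p = 0.0364), and the other 5 had adjusted p between 0.0733 and 0.130.

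The effect on *KLF5* moved upward, by 0.30 from 6 to 24 h (SE 0.078, interval 0.15 to 0.46, adjusted p = 0.00187) and by 0.24 from 3 to 24 h (adjusted p = 0.0155). The change of *KLF5* from 6 to 24 h was the one difference that passed at the threshold of 0.01. The effects on the other genes that passed moved downward. *KLF7* changed by −0.33 from 6 to 24 h (SE 0.12, adjusted p = 0.0351) and by −0.32 from 3 to 24 h (adjusted p = 0.0413). *KLF11* changed by −0.48 from 6 to 24 h (SE 0.17, adjusted p = 0.0406), and its change from 3 to 24 h of −0.42 did not pass (adjusted p = 0.0678).

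*KLF6* changed by −0.62 from 3 to 24 h (SE 0.20, interval −1.02 to −0.22, adjusted p = 0.0170), and its change of −0.53 from 6 to 24 h did not pass (adjusted p = 0.0694). *KLF4*, although it was called at 24 h and not before, did not pass in the test of the difference, with 0.69 from 6 to 24 h (SE 0.30, interval 0.10 to 1.29, adjusted p = 0.125) and 0.54 from 3 to 24 h (adjusted p = 0.246). A change of the effect with time was thus not shown for *KLF4*. For *KLF3*, the change from 6 to 24 h was −0.026 with an interval of −0.13 to 0.081, and for *KLF15* it was 0.026 with an interval of −0.20 to 0.26.

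**Figure D3:**
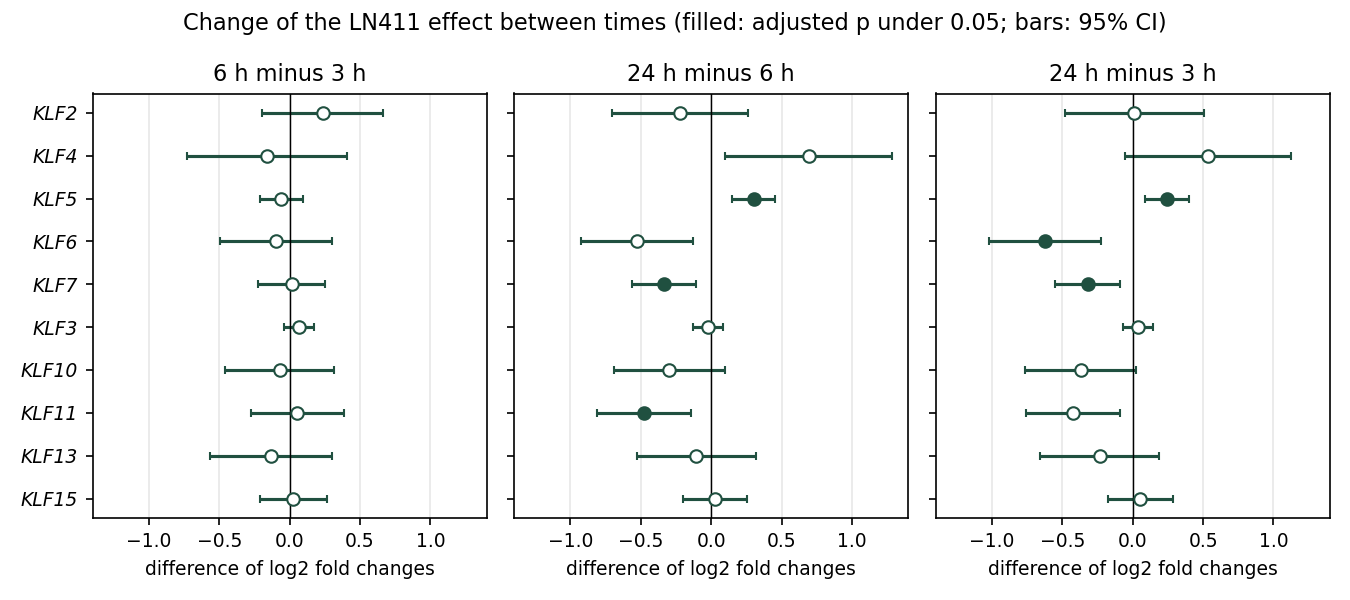
Later minus earlier log2 fold change of LN411 over FN for the 10 KLF genes in 3 pairs of times, with 95% confidence intervals as bars and filled circles for adjusted p under 0.05. Filled circles are absent from 6 h minus 3 h, and *KLF5* is the one filled circle on the right of 0 in the other panels, at 0.30 and 0.24.

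The genes also differed in precision among genes of like level. Each SE was set beside those of all genes of like level, for which the larger of both mean normalized counts exceeded the smaller by under 25%. The SE of *KLF4* at 24 h was 3.56 times the median of 1447 such genes, and 3 of these had an SE at least as large. *KLF6* had an SE 3.16 times the median of 1457 genes, with 12 at least as large, and *KLF10* had 2.40 times the median of 1494 genes, with 22 at least as large. These ratios were similar at 3 h, with 3.23 for *KLF4*, 3.13 for *KLF6* and 2.29 for *KLF10*. The mean count of a gene is a single value over all times, so the SEs may rest on one fit. The ratios at 3 h are thus no independent repeat of those at 24 h. An SE of this kind grows with the spread between samples that the authors' fit assigns to the gene. It also grows as the counts in the compared groups fall, and counts per group were not used here.

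*KLF3* and *KLF15* lay below their peers, at 0.875 and 0.890 times the median SE at 24 h. *KLF7*, *KLF11* and *KLF13* lay between 1.08 and 1.18 times, and *KLF5* at 1.31 times. *KLF2* had an SE that rose between times, from 0.15 at 6 h to 0.20 at 24 h, a ratio of 1.31 that was larger than in 96.6% of 845 genes of like level. For *KLF4* the same ratio was 1.08, larger than in 96.1% of its peers. What made the SE of these genes large, or rise between times, was not tested, since values per sample were not used here.

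**Figure D4:**
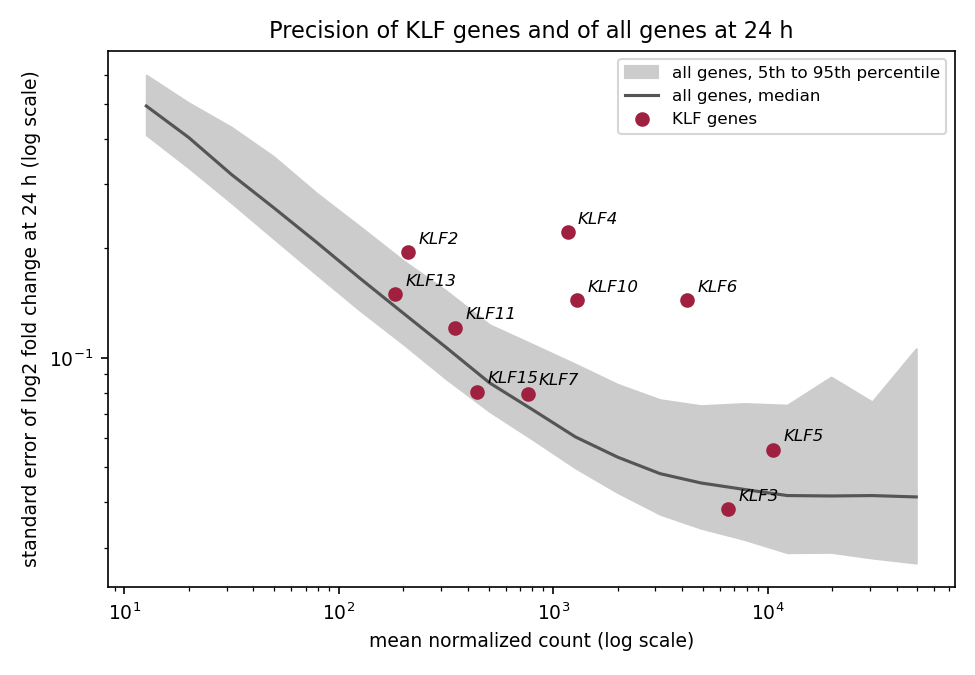
SE of the LN411 effect (log2 scale) at 24 h against the mean normalized count, both on log axes, with the 10 KLF genes as points, the median of all genes as a line and their 5th to 95th percentile as a band. *KLF4*, *KLF6* and *KLF10* lie far above the band, at 3.56, 3.16 and 2.40 times the median of genes of like level, and *KLF2* lies just above it at 1.51 times.

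Annotated genes overlap 5 of the 10 members, and 4 of these share exon bases with a long non-coding RNA on the opposite strand. The shared length was 416 bases for *KLF11*, 357 for *KLF4*, 265 for *KLF3*, and 67 and 13 for *KLF7*. These overlaps are those of GENCODE v44, whereas the authors counted with v32, and which of the overlapping genes v32 holds was not checked. The strand used in counting was not given in the sources used here. How reads from these bases were assigned is thus not known here. *KLF3-AS1*, antisense to *KLF3*, was the 1 overlapping gene of 9 listed in the deposited table, with log2 fold changes of −0.014, 0.088 and 0.35 at 3, 6 and 24 h (adjusted p = 0.108 at 24 h).

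Other KLF genes and the related SP factors, which bind the same GC-rich sites, were described in the same way. Of 8 other KLF genes, 4 were listed, and 1 was called higher at 6 h and 1 lower at 24 h, against 8.23% and 29.5% of all genes called at these times. *KLF16*, a repressor, had 0.26 on the log2 scale at 6 h (SE 0.070, adjusted p = 0.00548) and −0.089 at 24 h (adjusted p = 0.414). *KLF9*, a target of thyroid hormone and glucocorticoid receptors that also binds SIN3A, had −0.33 at 24 h (SE 0.12, adjusted p = 0.0182). *KLF8* and *KLF12* did not pass at any time.

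Of 9 SP genes, 7 were listed at 24 h, and 2 were called higher and 0 lower, which is near the 29.5% called over all genes. *SP8*, a developmental factor, was higher at 6 h with 0.29 (SE 0.065, adjusted p = 0.000481) and at 24 h with 0.72 (SE 0.067, adjusted p = 2.19e-25). *SP4* was higher at 24 h with 0.57 (SE 0.063, adjusted p = 7.54e-18), after 0.13 at 6 h (adjusted p = 0.198). *SP1* and *SP3*, the widely expressed members, had −0.087 and −0.049 at 24 h and did not pass. *SP8* and *SP4* thus had smaller p at 24 h than any of the 10 KLF genes.

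**Figure D5:**
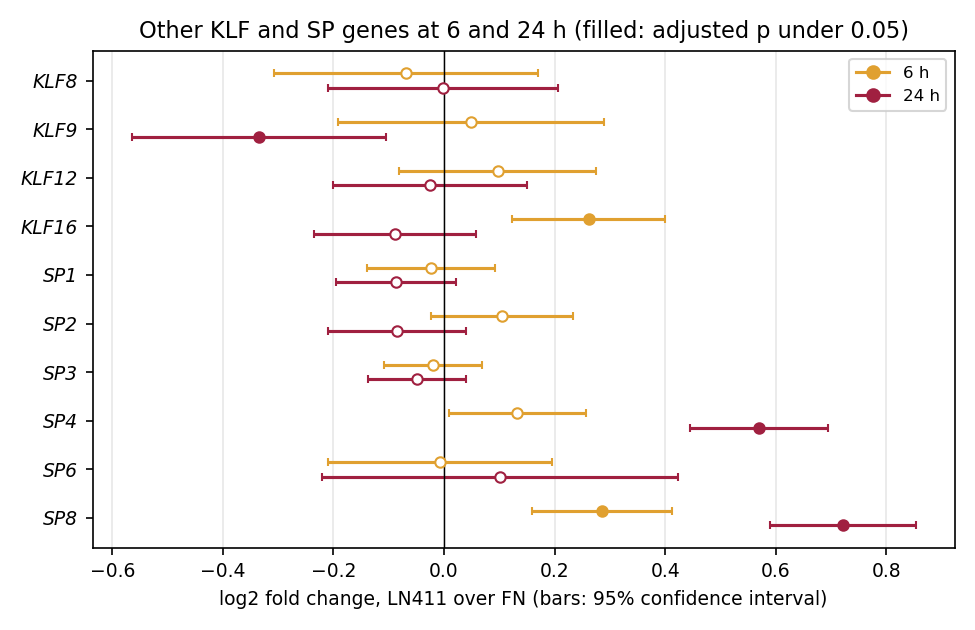
Log2 fold change of LN411 over FN for the other listed KLF and SP genes at 6 and 24 h, with 95% confidence intervals as bars and filled circles for adjusted p under 0.05; *SP5*, with a mean normalized count of 7.62, is not drawn. *SP8* at 0.72 and *SP4* at 0.57 lie furthest to the right at 24 h, and *KLF9* at −0.33 is the filled circle on the left.

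Of the 23 listed genes in 3 lists that act on KLF genes or proteins, 5 were called at 24 h, against 29.5% of all genes. The ERK5 and MEF2 module, which induces *KLF2* and *KLF4* in endothelium, had 7 of 8 genes listed, with 0 called at 3 and 6 h and 1 higher and 2 lower at 24 h. The transcription factor genes *MEF2D* and *MEF2A* had −0.20 (adjusted p = 0.000545) and −0.17 (adjusted p = 0.0226), and *MAP2K5*, the kinase of ERK5, had 0.18 (adjusted p = 0.0338), whereas ERK5 itself, *MAPK7*, had −0.051 and did not pass. Of 10 corepressor and coactivator genes, 0 were called at 3 and 6 h, and at 24 h the acetyltransferase gene *KAT2B* was higher at 0.39 (adjusted p = 5.09e-05) and the SIN3 gene *SIN3B* was lower at −0.18 (adjusted p = 0.0113). Of 6 ubiquitin ligase genes that act on KLF proteins, 0 were called at any time. At 24 h the median log2 fold changes of these 3 lists were −0.051, −0.0039 and 0.062, against 0.012 over all genes.

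Markers of pancreatic progenitors were present, with all 10 listed, among them *PDX1* at a mean normalized count of 12933 and *SOX9* at 20672, and 0, 3 and 4 were called higher at 3, 6 and 24 h, with 0 lower. Over all genes, 0.383%, 8.23% and 29.5% were called at 3, 6 and 24 h, with 16.7% higher and 12.8% lower at 24 h. The counts in the marker lists are small and were not tested against these shares. Of 8 endothelial markers, 5 were listed at 24 h, and *EGFL7* and *TIE1* were higher. *EGFL7*, which is also expressed in epithelium, held 2203 of the summed mean normalized count of 2562, and *TIE1* held 167. On LN411 at 24 h, *TIE1* was raised by 0.86 (adjusted p = 1.21e-05) and *EGFL7* by 0.38 (adjusted p = 2.44e-06) on the log2 scale. *PECAM1*, *ESAM* and *KDR*, with means of 75.0, 68.9 and 47.9, did not pass at 24 h. *CDH5* was listed at 6 h with 5.12, and *ERG* was not listed. Of 8 mesenchymal markers, 7 were listed, and 2 were higher and 1 lower at 24 h, with *COL1A2* at 45110 of a sum of 50751. *COL1A2* and *PDGFRA* were the higher ones, at 0.27 and 0.49, and *PDGFRB* was the lower one, at −0.66. *COL1A1*, *COL3A1*, *LUM* and *TWIST1* did not pass, so the markers of this list did not share a direction. Of 5 blood markers, *LYZ* and *CD74*, with means of 35183 and 1101, were listed at 24 h and both were higher. *CD34* and *SPI1*, with means of 11.6 and 5.56, were not listed at 24 h, and *PTPRC* was not listed. These values are no count of blood cells. Of 5 neural markers, 4 were listed at 24 h and 0 called. The part of these markers in the KLF values was not tested, and their levels in each group were not analysed here.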

How the data were processed

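RNA was sequenced as poly(A) libraries from the 18 samples. The authors aligned reads with STAR 2.7.2d to hg38, counted them per gene with the GENCODE v32 annotation and fitted DESeq2 1.34.0, whose design formula was not given in the sources used here. The deposited table holds, for each gene and time, the mean normalized count as a signal that the authors averaged after division by size factors. The authors' log2 fold changes (LN411 against FN) and their standard errors are log2 values. The deposited Wald statistic is a score, the log2 value divided by its error, and the deposited p-value and adjusted p-value follow from it. These columns are the authors' own comparison and were used because the members are defined on them. Values of single samples were not analysed here, so the depth of single libraries is unknown.

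From the estimates, two-sided Wald p-values were computed with the normal distribution and adjusted by the Benjamini-Hochberg method over the genes with an adjusted p in the deposited table (largest gap from the deposited value 9.72e-06). A gene was called at an adjusted p under 0.05. Effects at different times were compared by their difference over the root of the summed squared errors, which treats the times as independent, with adjustment over all genes listed at both. The steps were run on simulated effects with independent normal errors of the deposited size, which cannot test the independence of times or the error model. Effects were placed only in genes above a set mean count, and some members lie below it. All 10 members are named, and from each list of other genes at most 3 genes with the smallest p among those called at 24 h, with every further KLF or SP gene called at any time. Genes named beyond this rule (*KLF8*, *KLF12*, *SP1*, *SP3*, *SP5*, *MAPK7*, *KLF3-AS1* and markers) were chosen after their values were seen. The members and lists were chosen with earlier results of these data known. Gene positions, lengths and overlaps came from GENCODE v44, whose assembly, GRCh38, is also that of the authors' files, through Ensembl identifiers. Software was scipy 1.17.1, pandas 2.3.3 and numpy 2.4.6 under Python 3.11.15. Alternatives were an adjusted p under 0.01, a t distribution with 12 degrees of freedom, no independent filtering or the same filter at all times, a limit of 0.5 on the absolute log2 fold change, removal of GC content and length trends (medians over 25 bins), genes with an adjusted p at both times, and another transcript length. The study calls the replicates biological, and which samples shared a differentiation batch was not given in the sources used here. The p-values rest on the standard errors of the authors' fit to these samples and are no direct measure of the spread between them.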

Additional observations from a re-analysis of the deposited data

Results flagged for a closer look

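The effect of LN411 differed between times for 4 of the 10 KLF genes in the test of the difference. The log2 fold change of *KLF5* was higher at 24 h than at 6 h by 0.30 (adjusted p = 0.00187) and than at 3 h by 0.24 (adjusted p = 0.0155). The log2 fold change of *KLF6* at 24 h differed from that at 3 h by −0.62 (adjusted p = 0.0170). *KLF7* differed by −0.33 between 6 and 24 h (adjusted p = 0.0351) and by −0.32 between 3 and 24 h (adjusted p = 0.0413). *KLF11* differed by −0.48 between 6 and 24 h (adjusted p = 0.0406). Over all genes, 12.8% passed between 6 and 24 h, 17.0% between 3 and 24 h and 19.3% in at least 1 of the 3 pairs of times. With a t distribution, the change of *KLF5* from 6 to 24 h passed (adjusted p = 0.0364) and the other 5 differences did not (adjusted p between 0.0733 and 0.130).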

How the results depend on the processing

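Of 300 alternatives for single genes and differences, 280 kept the direction and the side of the threshold, 19 kept the direction and lost the call, 0 gained a call and 1 turned its direction. That one was *KLF2* at 6 h, which did not pass either way, with 0.027 above and −0.035 once GC content and length trends were removed. Most of the 300 alternatives concern results that were not called and so had no call to lose. The threshold of 0.01, the t distribution and the limit of 0.5 on the absolute log2 fold change can only remove calls. The 280 are thus no measure of how well the calls held. At the threshold of 0.01, the calls were 0 at 6 h, all and lower alike (1 in the values above), 0 higher at 24 h (1), 1 change from 6 to 24 h (3) and 0 changes from 3 to 24 h (3). Calls over all genes in either direction fell too, from 1065 to 577 at 6 h and from 5780 to 4255 at 24 h. Changes over all genes fell from 2420 to 1627 from 6 to 24 h and from 3204 to 2131 from 3 to 24 h. A t distribution gave the same counts, with 0 at 6 h, 0 higher at 24 h, 1 change from 6 to 24 h and 0 from 3 to 24 h. Over all genes it left 338 calls at 6 h, 4409 at 24 h, 1394 changes from 6 to 24 h and 1969 from 3 to 24 h. The limit of 0.5 on the absolute log2 fold change left 0 calls at 6 h, and at 24 h 1 lower (3) and 2 in all (4), since *KLF7* and *KLF11* lie under it. Over all genes, this limit left 50 calls at 6 h and 1698 at 24 h. Removing GC content and length trends left 1 change from 3 to 24 h (3), with *KLF5* at 0.20 (adjusted p = 0.0612) and *KLF7* at −0.30 (adjusted p = 0.0684), and the cause was not tested. Over all genes, 3055 changes from 3 to 24 h remained. The calls of *KLF6*, *KLF7* and *KLF11* at 24 h passed an adjusted p of 0.05 under every alternative test, with the highest adjusted p at 0.00523, 0.00222 and 0.0202, and *KLF4* ranged from 0.0201 to 0.0752.

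No paired analysis was possible because the table holds estimates over replicates and no column of a single sample or replicate number. For the same reason, fits with the replicate number as a block and fits that leave out a replicate were not run, and the influence of single libraries is unknown. Depth and the spread between replicates set the width of the intervals, which at 24 h ran from 0.075 on either side for *KLF3* to 0.43 for *KLF4*. An estimate for *KLF4* within this half-width would have an interval that includes 0, and a call after adjustment needs a larger one.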
